A study of Mus musculus with 24 samples.

Results

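Open chromatin was examined at 10 genes of glucose use, Pfkfb3, Pfkfb4, Pfkl, Hk1, Hk2, Hk3, Slc2a1, Ldha, Pkm and Hif1a, of 21842 protein-coding genes with an annotated transcription start site (TSS). The genes were chosen by name, with knowledge that Pfkfb3 held more of the strongest peaks after repeated lipopolysaccharide (LPS), the bacterial cell wall component that activates macrophages. Differences between LPSx2 and media are therefore given without a test for all 10 genes, and every treatment difference of Pfkfb3 is a description. The assay was ATAC-seq, in which the Tn5 transposase cuts accessible DNA, in bone marrow-derived macrophages (BMDM).

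Marrow of male mice at postnatal day 28 was cultured for 7 days to give the macrophages. The BTBR strain was BTBR T+ Itpr3tf/J. BTBR mice were animals 2, 3, 5 and 8, and C57BL6/J mice were animals 1, 4, 6 and 7, each biological replicate number being taken as 1 animal with 3 cultures. LPSx2 cultures received LPS at 100 ng/ml for 4 hours, 2 washes, 20 hours of plain medium and LPS at 100 ng/ml for another 24 hours. LPSx1 cultures received only the final 24 hours of LPS, and media cultures received none. The files give peak lists and no reads, so depth is known only as the number of peaks, 299 to 127291 in the 24 lists. Of these, 22 entered the comparisons (7 LPSx2, 8 LPSx1 and 7 media; 12 BTBR and 10 C57BL6/J). The media and LPSx2 lists of C57BL6/J animal 6 held 299 and 1879 peaks and were left out. Among 9 macrophage markers, Spi1 had a promoter peak in all 22 libraries, Cd68 in 20 and Cd14 in 18, while the other 6 had one in 8 to 14 libraries. The B cell, fibroblast and erythroid markers had no promoter peak in any library. Of the other lists, Cd3d had one in 4 libraries, S100a8, a neutrophil marker, in 17, and Zbtb46, a dendritic cell marker, in 10. The summed peaks of the 3 dendritic cell markers ranged from 0 to 2 in LPSx2, 0 to 3 in LPSx1 and 2 to 5 in media libraries, and their part in the results was not tested.

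Glucose enters the cell through transporters such as the Slc2a1 product, is trapped by hexokinases (Hk1, Hk2, Hk3) and is committed to glycolysis by phosphofructokinase, whose liver-type subunit is Pfkl. The bifunctional enzymes Pfkfb3 and Pfkfb4 make and remove the sugar phosphate that activates phosphofructokinase. Pkm encodes pyruvate kinase, Ldha a subunit of lactate dehydrogenase, and Hif1a the oxygen-regulated subunit of a transcription factor that binds a short core sequence, the hypoxia response element (HRE). LPS-activated macrophages are known for raised glycolysis and for stabilised Hif1a protein.

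Within each sequencing lane all lists were cut to the same number of highest-scoring peaks, and each peak was given to the nearest protein-coding TSS within 100 kb. The peaks of all libraries formed 75 regions at the 10 genes, among 40511 regions assigned to genes. Positions are in mm10, and distances are from the region's centre to the nearest TSS of the gene, negative where upstream. Pfkfb3 had 21 regions, Hk2 11, Slc2a1 10, Hif1a 8, Hk1 7 and Hk3, Ldha, Pkm and Pfkfb4 4 each, while Pfkl had 2. Of the 75, 8 regions (10.7%) were present in all 22 libraries, against 7.14% of all assigned regions, and 13 (17.3%) were found in 1 library, against 23.7%.

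A group of 6 regions was absent from all 7 media lists and present in 8 to 10 of the 15 LPS lists. They were Pfkfb3 regions 12, 13, 15 and 16 and Hk1 regions 3 and 5, all in introns. They make up 8% of the members' regions, against 2.35% of all assigned regions, a difference that carries no test because Pfkfb3 was chosen on the same lists. The strongest 201 bp peak of 4 of these regions is printed, as reference sequence of the C57BL/6J genome (RefSeq GRCm38.p6, plus strand), because their regions were in no media list of equal length. Ldha regions 1 and 4 are printed because they differ between LPS and media in opposite directions, and Hk3 region 1 because it differs between the strains. Capitals mark matches to 5 consensus motifs on either strand: AP-1 (TGAGTCA), the HRE core (ACGTG or GCGTG), PU.1 (GAGGAAGT), C/EBP (TTGCNNAA) and NF-kB. Matches may overlap, so the palindrome in Hk1 region 3 counts as 2 HRE cores. Pfkfb3 region 13 and Hk1 region 5 held none of the 5 motifs.
Pfkfb3 region 12, chr2:11503162-11503362: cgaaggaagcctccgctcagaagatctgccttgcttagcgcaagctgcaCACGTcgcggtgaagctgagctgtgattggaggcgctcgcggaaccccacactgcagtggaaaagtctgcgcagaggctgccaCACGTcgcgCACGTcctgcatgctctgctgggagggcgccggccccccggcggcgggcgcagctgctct
Pfkfb3 region 15, chr2:11523945-11524145: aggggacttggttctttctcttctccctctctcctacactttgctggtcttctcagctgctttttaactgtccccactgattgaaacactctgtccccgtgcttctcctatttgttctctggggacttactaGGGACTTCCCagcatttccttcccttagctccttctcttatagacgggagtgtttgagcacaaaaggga
Pfkfb3 region 16, chr2:11524769-11524969: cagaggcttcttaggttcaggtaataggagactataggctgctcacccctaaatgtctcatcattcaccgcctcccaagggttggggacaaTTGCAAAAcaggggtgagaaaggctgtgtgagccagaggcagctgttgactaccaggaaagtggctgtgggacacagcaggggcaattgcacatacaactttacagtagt
Hk1 region 3, chr10:62300350-62300550: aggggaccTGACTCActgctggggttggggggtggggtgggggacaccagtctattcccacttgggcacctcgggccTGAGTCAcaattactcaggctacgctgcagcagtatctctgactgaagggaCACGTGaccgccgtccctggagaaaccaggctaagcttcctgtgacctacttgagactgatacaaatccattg
Ldha region 1, chr7:46833352-46833552: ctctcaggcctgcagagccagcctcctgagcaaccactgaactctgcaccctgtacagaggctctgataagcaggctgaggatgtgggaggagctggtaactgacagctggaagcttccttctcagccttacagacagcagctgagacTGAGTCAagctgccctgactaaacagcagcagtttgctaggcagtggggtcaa
Ldha region 4, chr7:46845954-46846154: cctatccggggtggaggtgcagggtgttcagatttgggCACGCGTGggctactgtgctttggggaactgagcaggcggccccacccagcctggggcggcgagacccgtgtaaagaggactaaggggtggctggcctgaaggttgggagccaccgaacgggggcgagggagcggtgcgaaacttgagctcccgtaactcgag
Hk3 region 1, chr13:55020141-55020341: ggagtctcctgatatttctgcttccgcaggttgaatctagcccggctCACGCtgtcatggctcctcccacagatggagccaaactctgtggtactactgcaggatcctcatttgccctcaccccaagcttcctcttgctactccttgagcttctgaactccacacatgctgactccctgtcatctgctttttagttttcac

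Pfkfb3 region 12 held 3 HRE cores, region 15 an NF-kB match and region 16 a C/EBP match, and Hk1 region 3 held 2 AP-1 matches and 2 HRE cores. These motifs are common. Of the members' 57 regions over 1 kb from a TSS, 22.8% held AP-1, against 21.1% of all 30902 such regions, and 19.3% held an HRE core, against 22.3%. C/EBP was found in 21.1% against 15.6%, PU.1 in 7.02% against 11.0%, and NF-kB in 1.75% against 4.12%. At promoters, within 1 kb of a TSS, an HRE core was found in 11 of 18 member regions (61.1%), against 53.8% of 14097. AP-1 and PU.1 were found in none of these 18, against 4.1% and 3.59%, and C/EBP and NF-kB in 1 each (5.56%), against 5.73% and 4.07%. The matches are descriptions of sequence and do not show binding.

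Pfkfb3 (chromosome 2, 11471433 to 11554077, minus strand) had the widest spread in peak number. In LPSx2 cultures it had 10, 13, 7 and 6 peaks in BTBR animals 2, 3, 5 and 8 and 10, 18 and 9 in C57BL6/J animals 1, 4 and 7. In LPSx1 cultures it had 10, 13, 4 and 5 peaks in BTBR animals 2, 3, 5 and 8 and 10, 12, 7 and 3 in C57BL6/J animals 1, 4, 6 and 7. In media cultures it had 4, 10, 7 and 6 peaks in BTBR animals 2, 3, 5 and 8 and 4, 8 and 6 in C57BL6/J animals 1, 4 and 7. The groups overlapped, and C57BL6/J animal 4 after LPSx2 stood highest. The means were 10.4 ± 4.04 peaks in LPSx2 (SD, n = 7), 8.00 ± 3.78 in LPSx1 (n = 8) and 6.43 ± 2.15 in media (n = 7). LPSx2 was above media in 5 of 7 animals and equal in 2, and the fitted difference, given as a description, was 4.29 peaks (SE 1.13). In these bulk libraries, more cells with an open site and more opening per cell cannot be told apart. The difference was uneven between lanes, with a mean of 6.25 peaks in lanes 1 and 2 and 1.00 in lanes 3 and 4. LPSx1 minus media was 4.75 peaks in lanes 1 and 2 and -2.33 in lanes 3 and 4, so its direction was opposite between the lane pairs. The kept lists held 17041 to 127291 deposited peaks in lanes 1 and 2 and 13959 to 43321 in lanes 3 and 4. After overlapping peaks were merged they held 11349 to 127242 and 13957 to 43304. Additional PCR cycles numbered 6 to 8 and 10 to 13. The part of list length and PCR cycles in this was not tested. In the lists before the cut to equal length, the fitted difference between LPSx2 and media was 15 peaks (SE 9.26). The largest gap there was in BTBR animal 2, with 19 peaks in a media list of 63125 and 89 in an LPSx2 list of 127242.

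**Figure D1:**
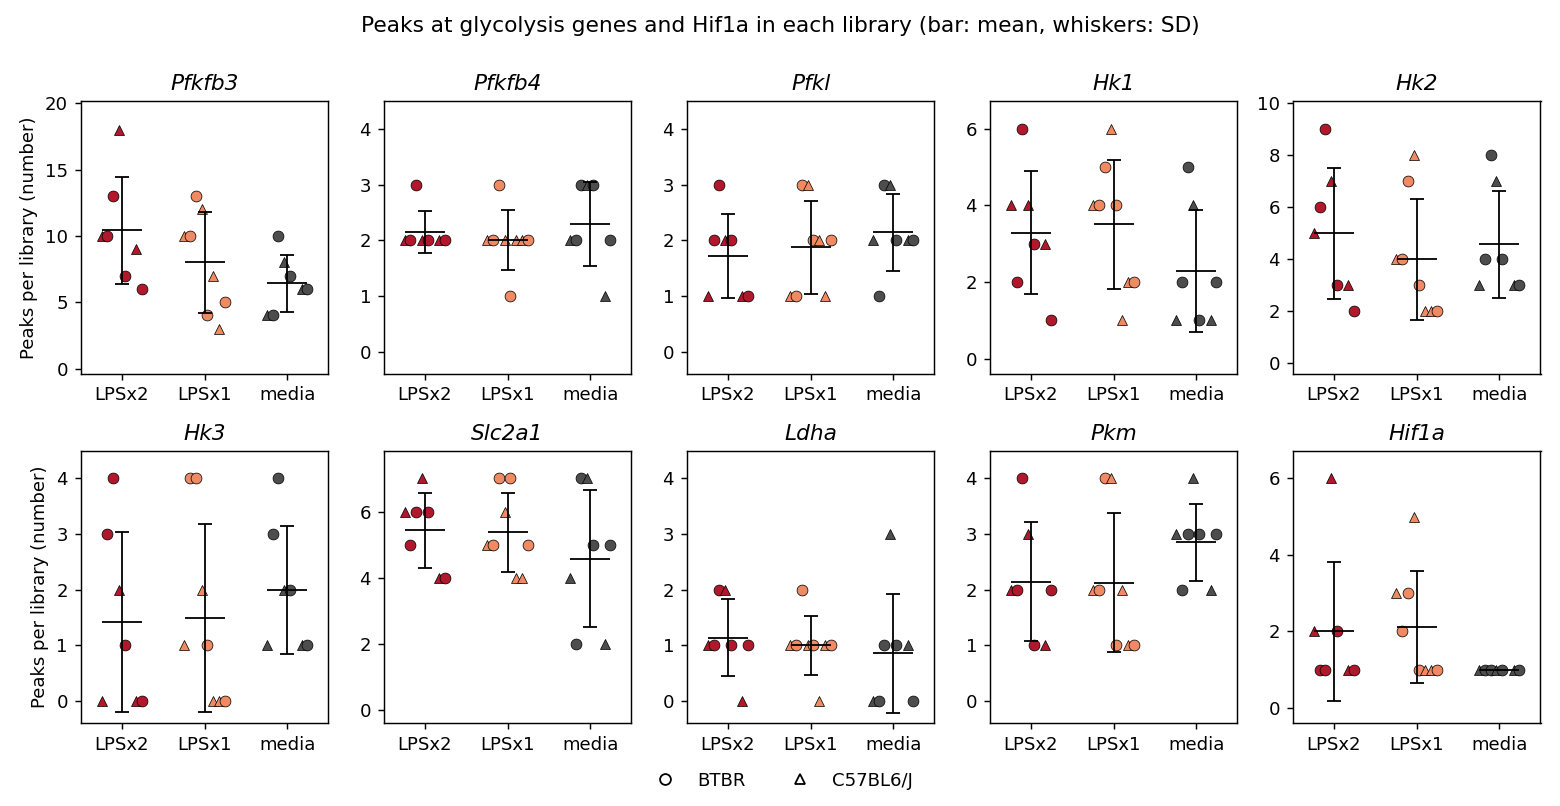
Number of peaks at each of the 10 genes (y axis) in each library, by treatment (x axis), in lists of equal length within a lane; circles are BTBR, triangles C57BL6/J, the bar is the mean and whiskers the SD. Pfkfb3 averaged 10.4 peaks in LPSx2, 8.00 in LPSx1 and 6.43 in media, and Hif1a had 1 peak in all 7 media libraries.

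The region-by-library map of Pfkfb3 shows which peaks made up these numbers. Region 1 (chr2:11429620-11429938, intergenic, 71921 bp downstream of the nearest Pfkfb3 TSS) and region 19 (chr2:11535477-11535774, intron, 18452 bp downstream) were present in all 22 libraries. Region 1 had a median percentile of 93.4 within the lists, where 100 is the strongest peak. Region 16 (chr2:11524740-11525054, intron) was found in 5 of 7 LPSx2, 5 of 8 LPSx1 and 0 of 7 media libraries, with a median percentile of 64.2 where present. Region 15 (chr2:11523911-11524172) was found in 4 LPSx2, 4 LPSx1 and 0 media libraries, and region 13 (chr2:11512147-11512440) in 4, 4 and 0. Regions 13, 15 and 16 were also absent from all 7 media lists at full length. The media lists of animals 1, 4 and 5 set the limits of lanes 1 to 3 and were not cut. Only the other media lists could therefore add a region at full length. All 8 LPS libraries of lanes 1 and 2 held regions 12, 15 and 16, and 7 of them held region 13. In lanes 3 and 4, regions 12 and 16 were found in 2 of 7 LPS libraries each, region 13 in 1 and region 15 in 0. Region 12 (chr2:11503113-11503404), printed above with its 3 HRE cores, was found in 5 LPSx2, 5 LPSx1 and 0 media libraries, but 4 media lists held it at full length.

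The promoter regions of Pfkfb3 did not share this pattern. Region 10 was found in 2 media libraries and in 0 of the LPSx2 and LPSx1 libraries, and region 9 in 3 LPSx2, 0 LPSx1 and 5 media libraries. At full length 5 LPSx2, 4 LPSx1 and 6 media lists held region 9. Region 11, at the same cluster of start sites, was found in 7 of 7 LPSx2, 8 of 8 LPSx1 and 5 of 7 media libraries. The best promoter peak of Pfkfb3 stood at percentile 66.2 ± 13.8 in LPSx2, 54.4 ± 27.3 in LPSx1 and 49.8 ± 28.3 in media libraries (SD, n = 7, 8 and 7), with overlapping groups. The highest value, 18 peaks in C57BL6/J animal 4 after LPSx2, included 5 neighbouring regions 30847 to 32994 bp downstream (regions 3 to 7) that no other list of equal length held. At full length 1 to 4 LPSx2, 1 to 2 LPSx1 and 0 media lists held each of them. These regions, singled out after their values were seen, lie just beyond the 3′ end of the gene.

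**Figure D2:**
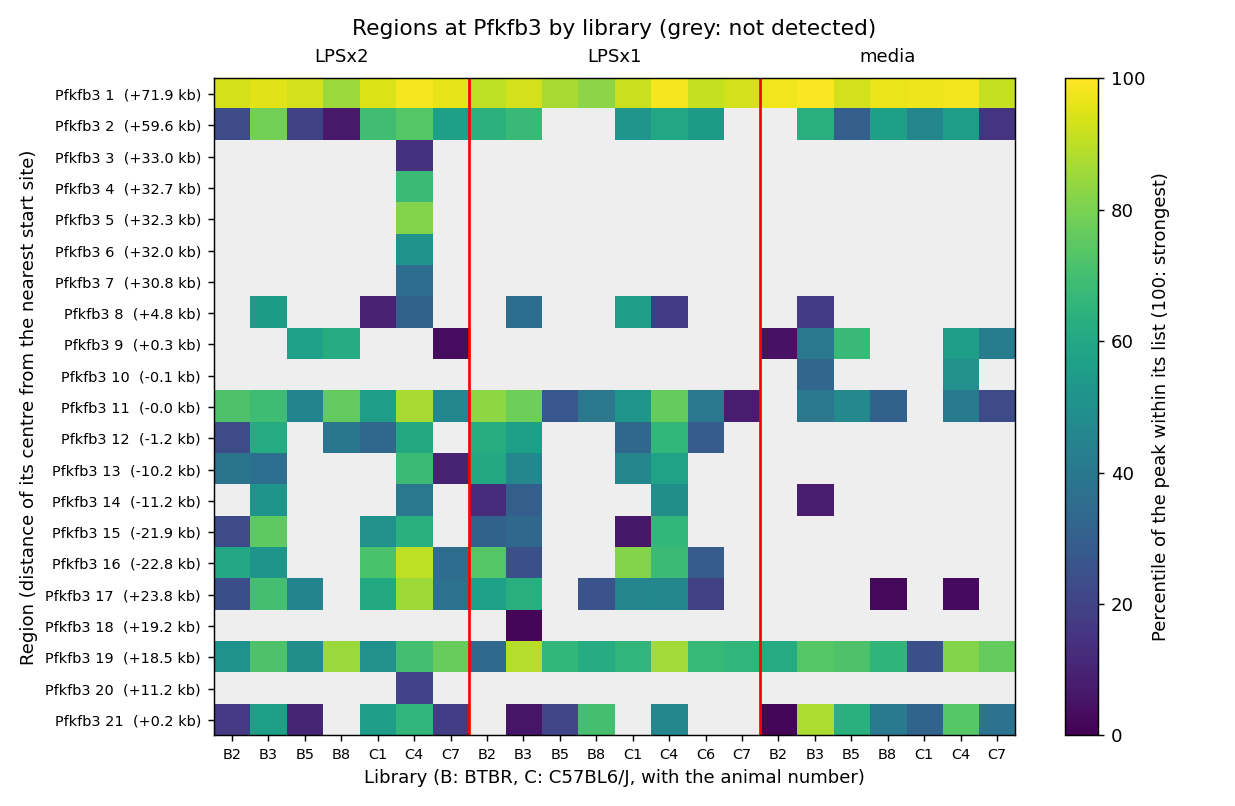
Regions at Pfkfb3 (rows, in order along the chromosome, with the distance of each centre from the nearest TSS) in the 22 libraries (columns, grouped by treatment); colour is the percentile of the peak within its list and grey is not detected. Regions 13, 15 and 16 are coloured in LPS columns and grey in all 7 media columns.

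Hk1 (chromosome 10, 62268855 to 62379908, minus strand) had 2, 6, 3 and 1 peaks in LPSx2 cultures of BTBR animals 2, 3, 5 and 8 and 4, 4 and 3 in those of C57BL6/J animals 1, 4 and 7. In LPSx1 cultures it had 4, 5, 4 and 2 peaks in the same BTBR animals and 4, 6, 1 and 2 in C57BL6/J animals 1, 4, 6 and 7. In media cultures it had 2, 5, 1 and 2 peaks in BTBR and 1, 4 and 1 in C57BL6/J animals 1, 4 and 7. LPSx1 was above media in 5 animals and equal in 2, with 3.50 ± 1.69 peaks in LPSx1 (SD, n = 8) against 2.29 ± 1.60 in media (n = 7). The fitted difference of 1.40 peaks (SE 0.527) did not pass the adjustment over all 9134 genes tested (limma, adjusted p = 0.138). Within lanes 1 and 2 the mean difference was 1.75 peaks and within lanes 3 and 4 it was 1.33. Region 3 of Hk1 (chr10:62300313-62300619, intron, 17927 bp downstream of the nearest TSS), which carries the paired AP-1 matches printed above, was found in 4 of 7 LPSx2, 6 of 8 LPSx1 and 0 of 7 media libraries. At full length 3 media lists held it. Region 5 (chr10:62323772-62324120, intron) was found in 5 LPSx2, 5 LPSx1 and 0 media libraries, and in 1 media list at full length. Among LPS libraries, 8 of 8 in lanes 1 and 2 and 2 of 7 in lanes 3 and 4 held region 5. For region 3 these numbers were 6 of 8 and 4 of 7. The promoter region of Hk1, region 7, was present in all 22 libraries with a median percentile of 93.1.

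Hk2 (chromosome 6, 82725025 to 82774454, minus strand), the inducible hexokinase, had 5.00 ± 2.52 peaks in LPSx2 (SD, n = 7), 4.00 ± 2.33 in LPSx1 (n = 8) and 4.57 ± 2.07 in media (n = 7), with ranges of 2 to 9, 2 to 8 and 3 to 8. Its main promoter, region 5, was present in all 22 libraries with a median percentile of 87.2. A second promoter region, region 4 (chr6:82773253-82773666), whose strongest peak held 6 HRE cores, was found in 2 of 7 LPSx2, 2 of 8 LPSx1 and 5 of 7 media libraries. At full length 4 LPSx2, 7 LPSx1 and 6 media lists held region 4. An intronic region with PU.1 and C/EBP matches, region 2, was found in 5 LPSx2, 6 LPSx1 and 7 media libraries. Hk3 (chromosome 13, 55005985 to 55021385, minus strand) had 1.43 ± 1.62 peaks in LPSx2, 1.5 ± 1.69 in LPSx1 and 2.00 ± 1.15 in media libraries. Hk3 had a promoter peak in 4 of 7 LPSx2, 4 of 8 LPSx1 and 7 of 7 media libraries. At full length 5 LPSx2, 6 LPSx1 and 7 media lists held its promoter region 2, and 5, 6 and 5 held its promoter region 1. LPSx2 was below media at Hk3 in 4 of 7 animals and equal in 3.

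Slc2a1 (chromosome 4, 119108711 to 119137983, plus strand) had 5, 6, 6 and 4 peaks in LPSx2 cultures of BTBR animals 2, 3, 5 and 8 and 6, 7 and 4 in those of C57BL6/J animals 1, 4 and 7. The ranges were 4 to 7 in LPSx2, 4 to 7 in LPSx1 and 2 to 7 in media. LPSx1 averaged 5.38 ± 1.19 peaks (SD, n = 8) and media 4.57 ± 2.07 (n = 7), a fitted difference of 0.78 (SE 0.552, limma, adjusted p = 0.444). It ranged from 0.354 peaks without C57BL6/J animal 7 to 1.35 without C57BL6/J animal 4, with longer lane 2 lists. With only the higher-scoring 50% of each list, this difference was 1.56 peaks and passed (limma, adjusted p = 0.0408). Region 9 (chr4:119125910-119126260, intron, 17216 bp downstream of the TSS) was found in 7 of 7 LPSx2, 7 of 8 LPSx1 and 2 of 7 media libraries, and in 4 media lists at full length. Region 4 (chr4:119118885-119119143, intron) was found in 4 of 7 media libraries, all in lanes 1 and 2, and in 0 of the LPSx2 and LPSx1 libraries. At full length 1 LPSx2 and 3 LPSx1 lists held region 4. Both are intronic, so the gene combined an intronic peak found mostly with LPS and one found only in media among lists of equal length. Of the 75 member regions, 1 (1.33%), region 4 of Slc2a1, was absent from all LPS lists and in at least 50% of media lists. The share among all assigned regions was 0.770%.

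Ldha (chromosome 7, 46841475 to 46855627, plus strand) had few peaks, with 1.14 ± 0.69 in LPSx2, 1.00 ± 0.535 in LPSx1 and 0.857 ± 1.07 in media libraries (SD, n = 7, 8 and 7). Its regions nevertheless split by treatment. Region 1 (chr7:46833306-46833568, intergenic, 8038 bp upstream), which carries the AP-1 match printed above, was found in 6 of 7 LPSx2, 7 of 8 LPSx1 and 2 of 7 media libraries, and in 4 media lists at full length. Ldha region 4, a promoter region (chr7:46845664-46846154) with 2 overlapping HRE cores, was found in 3 of 7 media libraries and in 0 of the LPSx2 and LPSx1 libraries. The percentile of that promoter peak was 12.9 to 37.6 in those 3 media libraries, near the low end of the lists. At full length 3 LPSx2, 5 LPSx1 and 6 media lists held it, so the split concerns which peaks ranked highly.

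Hif1a (chromosome 12, 73901375 to 73947530, plus strand) had exactly 1 peak in every media library, the promoter region 7 (chr12:73907645-73908013), which was present in all 22 libraries and held 3 HRE cores. In LPSx2 cultures it had 1, 1, 2 and 1 peaks in BTBR animals 2, 3, 5 and 8 and 2, 6 and 1 in C57BL6/J animals 1, 4 and 7. In LPSx1 cultures it had 2, 3, 1 and 1 peaks in BTBR animals 2, 3, 5 and 8 and 3, 5, 1 and 1 in C57BL6/J animals 1, 4, 6 and 7. LPSx1 was above media in 4 animals and equal in 3, and the 4 were those of lanes 1 and 2. The fitted difference of 1.19 peaks (SE 0.596) did not pass (limma, adjusted p = 0.265), with a mean of 2.25 peaks in lanes 1 and 2 and 0.00 in lanes 3 and 4. Without C57BL6/J animal 1 the fitted difference was 1.88 peaks, with longer lane 1 lists. Without C57BL6/J animal 4, with longer lane 2 lists, it was 0.854 peaks. With only the higher-scoring 50% of each list it was 0.135 peaks. Region 4 (chr12:73898742-73899149, intergenic, 2430 bp upstream) was found in 2 LPSx2, 3 LPSx1 and 0 media libraries. The full lists of media also lacked it, though those of animals 1, 4 and 5 were not cut and could not add it.

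**Figure D3:**
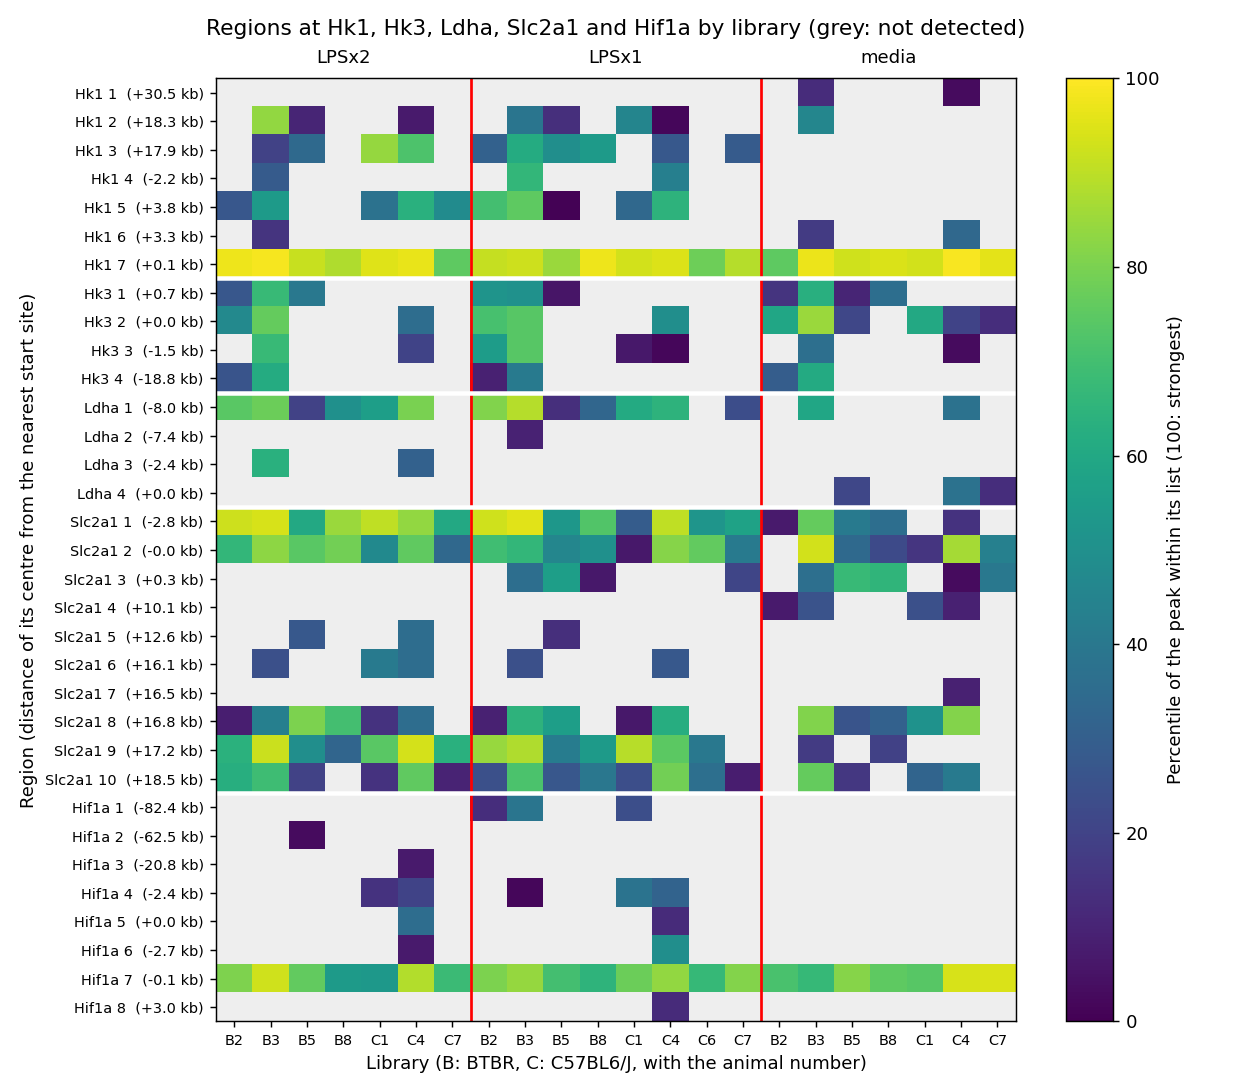
Regions at Hk1, Hk3, Ldha, Slc2a1 and Hif1a (rows, with the distance from the nearest TSS) in the 22 libraries (columns, grouped by treatment); colour is the percentile of the peak within its list and grey is not detected. Ldha region 1 is coloured in 13 of 15 LPS columns and 2 of 7 media columns, and Hk3 region 1 only in BTBR columns.

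The remaining members, Pfkfb4, Pfkl and Pkm, had treatment means of 1.71 to 2.86 peaks. Their best promoter peaks ranged from percentile 71.7 to 99.3 at Pfkfb4, 1.8 to 97.7 at Pfkl and 1.8 to 96.8 at Pkm. Pfkfb4 had 2.14 ± 0.378 peaks in LPSx2, 2.00 ± 0.535 in LPSx1 and 2.29 ± 0.756 in media libraries (SD, n = 7, 8 and 7). Its promoter, region 2, was in all 22 libraries with a median percentile of 91.9. Pfkl had 1.71 ± 0.756, 1.88 ± 0.835 and 2.14 ± 0.69 peaks in LPSx2, LPSx1 and media, and its promoter region was likewise present throughout. Pkm had 2.14 ± 1.07, 2.13 ± 1.25 and 2.86 ± 0.69 peaks in LPSx2, LPSx1 and media. The LPSx1 minus media difference at Pkm was -0.656 peaks (SE 0.337, limma, adjusted p = 0.280), with LPSx1 below media in 4 of 7 animals. It was -0.167 peaks without C57BL6/J animal 1, with longer lane 1 lists.

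Across all tests of LPSx1 against media, 0 of 9 members passed at an adjusted p of 0.05, where 5.59% of the 9134 tested genes did. At an unadjusted p under 0.05 there was 1 of the 9, Hk1, and 1978 of the 9134 genes (21.7%). The median difference of these 9 members was -0.219 peaks, and that of all tested genes was 0. LPSx2 against LPSx1, which asks whether an earlier dose changes the response to a later one, gave 0 of 9 members in limma, with 0% of the 9134 genes passing. None of these 9 had an unadjusted p under 0.05 in that comparison, and 400 of the 9134 genes did. For promoter peaks, the percentile was tested for genes with one in all 22 lists. LPSx1 against media gave 0 of 6 members in limma, against 1.31% of 2605 genes. At an unadjusted p under 0.05 there were 0 members and 500 genes. The best promoter peak of Pfkl stood at percentile 51.5 ± 25.2 in LPSx1 and 65.8 ± 31.2 in media libraries (SD, n = 8 and 7), a fitted difference of -15.0 (SE 9.43, limma, adjusted p = 0.370). It was -6.04 without BTBR animal 8, with longer lane 4 lists, and -23.9 without BTBR animal 2. Without the 7 lists that hold duplicated peaks it was -31.2, with C57BL6/J media and LPSx2 left to animal 7 alone.

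Between the strains, 1 of 10 members passed, Hk3, where 1.22% of the 9134 genes did. Hk3 had 0 to 4 peaks in BTBR libraries, with a median of 2.5, and 0 to 2 in C57BL6/J libraries, with a median of 1. The ranges overlapped. The means were 2.25 ± 1.60 in BTBR (SD, n = 12) and 0.90 ± 0.876 in C57BL6/J (n = 10). The fitted difference was 1.53 peaks (SE 0.338, limma with the animal as random effect, adjusted p = 0.0424). The correlation within animals, shared by all genes, was estimated at -0.00489. The random effect therefore changed little, and this SE treats the libraries of 1 animal nearly as separate samples. In lanes 1 and 2 the means were 3.67 in BTBR and 1.33 in C57BL6/J, and in lanes 3 and 4 they were 0.833 and 0.25. Over each animal's libraries, BTBR animals 2, 3, 5 and 8 averaged 3.33, 4.00, 1.33 and 0.333 peaks, and C57BL6/J animals 1, 4, 6 and 7 averaged 0.667, 2.00, 0 and 0.333. The call ended without the lane term, at full list length, with the higher-scoring 50% and within 25 kb (limma, adjusted p = 0.0602). Without the lists holding duplicated peaks the difference was 0.124 peaks. That setting left C57BL6/J media and LPSx2 to animal 7 alone, and lane 1 to BTBR animal 2. The call also ended when animal 1, 2, 3, 4, 5 or 6 was left out, with differences of 1.02 to 1.56 peaks. Without animal 1, 4 or 5, the lists of that animal's lane were also longer.

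Hk3 region 1 (chr13:55020112-55020367, 665 bp downstream of the TSS), printed above, was found in 10 of 12 BTBR and 0 of 10 C57BL6/J libraries. It spanned percentiles 5.6 to 67.2 where present. At full length 10 BTBR and 6 C57BL6/J lists held it. A second region, region 4 (chr13:55040073-55040369), lay in an intron of the neighbouring gene Uimc1 and was found in 6 BTBR libraries, all those of animals 2 and 3, and 0 C57BL6/J libraries. At full length 6 BTBR and 3 C57BL6/J lists held region 4. It was singled out after its values were seen. Among all 40511 assigned regions, 0.257% were held by at least 75% of BTBR and at most 25% of C57BL6/J libraries. The promoter peak percentile gave 0 of 7 members between strains in limma, against 0.192% of 2605 genes. At an unadjusted p under 0.05 there was 1 member, Hk2, and 308 genes. Hk2 stood at percentile 89.2 ± 6.99 in BTBR (SD, n = 12) and 82.8 ± 9.65 in C57BL6/J (n = 10), a fitted difference of 8.13 (SE 3.38, limma, adjusted p = 0.371). It was 2.79 without C57BL6/J animal 1, with longer lane 1 lists, and 2.80 without BTBR animal 2. Without the lists that hold duplicated peaks it was 1.54, with C57BL6/J media and LPSx2 left to animal 7 alone.

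**Figure D4:**
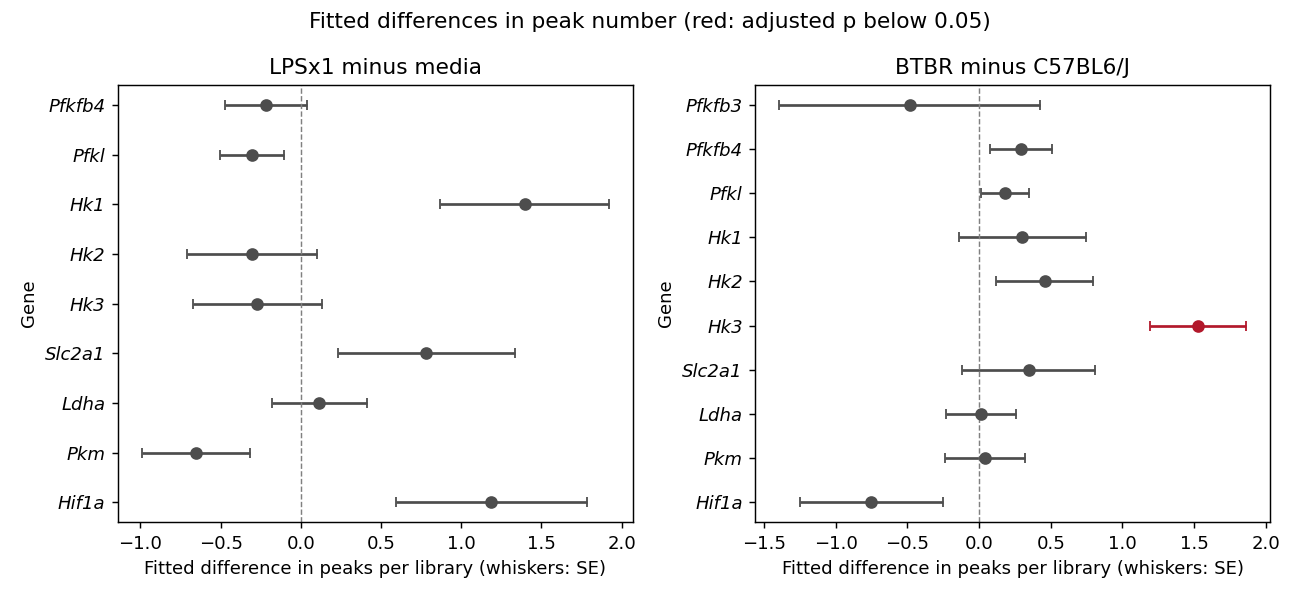
Fitted difference in peaks per library (x axis, whiskers are the SE) for each gene (y axis), LPSx1 minus media on the left and BTBR minus C57BL6/J on the right; red marks an adjusted p below 0.05. Only Hk3 between the strains, at 1.53 peaks, passed.

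The response to LPS was not shown to differ between the strains at any of the 9 members other than Pfkfb3. The test of that difference gave 0 of 9 for LPSx1 in limma, against 0.0328% of the 9134 genes, and 0 of 9 for LPSx2, against 0.0109%. At an unadjusted p under 0.05 there were 0 members and 523 genes for LPSx1, and 1 member, Pfkl, and 593 genes for LPSx2. As a description, Pfkfb3 averaged 9.0 ± 3.16 peaks in LPSx2 and 6.75 ± 2.50 in media for BTBR (SD, n = 4 each). For C57BL6/J it averaged 12.3 ± 4.93 in LPSx2 and 6.00 ± 2.00 in media (SD, n = 3 each).

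Of 61 further genes of glycolysis, the pentose phosphate pathway and the hypoxia response, 51 had enough peaks to be tested. LPSx1 against media called 2 as higher and 0 as lower (3.92% of the 51, against 5.59% of all 9134 genes tested). Their median difference was -0.031 peaks, and that of all genes was 0. Rpia, an isomerase of the pentose phosphate pathway, had 3.00 ± 1.00 peaks in LPSx2, 2.63 ± 0.518 in LPSx1 and 1.14 ± 0.378 in media libraries, and rose by 1.49 peaks with LPSx1 (SE 0.313, limma, adjusted p = 0.0159). The Rpia call ended without the lane term, at full length, with the higher-scoring 50%, within 25 kb and without the lists holding duplicated peaks, and without animal 1, 3, 4 or 5, with differences of 0.25 to 3.94 peaks. Hif3a, a relative of Hif1a, had 1.14 ± 0.378 peaks in LPSx2, 1.5 ± 1.31 in LPSx1 and 0 in all 7 media libraries, and rose by 1.43 peaks (SE 0.363, limma, adjusted p = 0.0368). The Hif3a call ended with the replicate block (1.21 peaks, limma, adjusted p = 0.0555), without the lane term, at full length and without the lists holding duplicated peaks, and without animal 2, 3, 4, 5, 7 or 8, with differences of 1.17 to 2.52 peaks. None of the 10 other glycolytic enzymes, the 12 regulators and transporters or the 15 hypoxia target genes tested passed. The strain comparison, the LPSx2 against LPSx1 comparison and both tests of strain differences in response called 0 of the 51 in limma. At an unadjusted p under 0.05 there were 7 of the 51 between strains, against 1181 of all 9134 genes, and 0 for LPSx2 against LPSx1, against 400. For the strain difference in response there were 4 for LPSx1, against 523, and 8 for LPSx2, against 593.

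The genes whose peak number varied most like that of Pfkfb3 over the 22 libraries, after lane means were removed, were Socs3 (Pearson r = 0.826), Pilra (0.825), Jade2 (0.817), Ifitm2 (0.811) and Cep83 (0.809). For Hk2 they were Tex2 (r = 0.757), Lyn (0.743), Notch1 (0.730), Nfya (0.717) and Slc4a5 (0.707). These values describe likeness across libraries that share animals and lanes.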

How the data were processed

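ATAC-seq peak lists of 24 macrophage libraries were used. Alignment to mm10, fragments under 147 bp, and peak calling with HOMER in each library are per the labels and the submitters' processing notes, as are Trimmomatic 0.38, SAMtools 1.8 and Picard 2.18.4, with bedtools; the aligner is not given in the sources used here. The deposited peak score has no stated scale and only ranked peaks within a list. File names state a false discovery rate of 0.01.

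Overlapping peaks were merged to the highest-scoring one, because 7 lists held 66.7% to 87.4% of their peaks in overlap. These were the 3 of C57BL6/J animal 1, plus LPSx2 and media of animals 3 (BTBR) and 4 (C57BL6/J). Lists under 5000 merged peaks were left out. Lists were limited to 11349, 22037, 16045 and 13957 peaks in lanes 1 to 4, so peak numbers compare a gene's place among the strongest peaks and say nothing of total accessibility. The media lists of animals 1, 4 and 5 and the LPSx1 list of animal 8 set these limits. Leaving out any of these animals therefore also lengthened the other lists of its lane. Peaks were given to the nearest TSS of a protein-coding transcript (GENCODE vM21) within 100 kb, and genes averaging 0.5 peaks or more entered the test in R 4.3.3 with limma 3.58.1 (trend, robust; 6 strain-by-treatment groups plus lane; Benjamini-Hochberg, 0.05). Treatment contrasts weighted the strains equally. The strain contrast used duplicateCorrelation by animal (consensus -0.00489 for peak numbers). The promoter measure was the percentile of the best peak within 1 kb of a TSS, in genes with one in all 22 lists. Regions are peaks of the limited lists merged at 1 bp of overlap. Each replicate number covers all 3 treatments of 1 biological replicate, so the numbers pair the libraries; the fit with the animal as replicate block is an alternative. The main fit treats the cultures of 1 animal as separate samples. The tests were checked on simulated data.

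The members, gene lists and merging were chosen with earlier results of these data known. Named genes are the members, listed pathway genes that passed a tested contrast, and the 5 genes most like Pfkfb3 and Hk2; named regions are those held by at least 75% of libraries of 1 group and at most 25% of another, or by all, and others named were chosen after their values were seen.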

Additional observations from a re-analysis of the deposited data

Results flagged for a closer look

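In 56 sets of member values by treatment, 7 held a library far from the rest of its group, by its gap to the next library relative to the whole range. Chance flags about 1 in 20 sets of normally distributed values, a rate that does not hold for small, tied peak counts. The number flagged is therefore not compared with chance. BTBR animal 3 had 3 peaks at Pfkfb4 after LPSx2, where the other LPSx2 libraries had 2. C57BL6/J animal 4 had 6 peaks at Hif1a after LPSx2, and 3 peaks at Ldha in media. The media library of BTBR animal 2 had the lowest promoter peak percentile of its group at Pfkl (1.8), Pkm (1.8) and Hk1 (75.1). The media library of C57BL6/J animal 1 stood lowest at the Hk2 promoter, at percentile 64.4. Of these libraries, those of BTBR animal 3 after LPSx2, C57BL6/J animal 4 in media and after LPSx2, and C57BL6/J animal 1 in media came from lists that held duplicated peaks before merging.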

How the results depend on the processing

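Depth is known only through list length. LPS lists held 66 member regions in lanes 1 and 2 and 36 in lanes 3 and 4, with 33 in both. The same count over all assigned regions was not made, so these numbers are not a result about the members. With the replicate block, members called stayed at 0 for LPSx1 against media, for LPSx2 against LPSx1, for the strain difference in the response and for promoters. Over all genes LPSx1 against media called 352 in place of 511, and 22 promoters in place of 34. Of the pathway genes, Rpia still passed and Hif3a did not. The block changed no other call of a named gene; it was not run for the strain contrast, where animal and strain coincide.

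The strain count of 1 member, Hk3, became 0 without the lane term (1.40 peaks), at full length (1.77), with the higher-scoring 50% (1.18), within 25 kb and without duplicated lists (0.124), and ranged from 0 to 1 when each animal was left out. LPSx1 against media called 1 member, Slc2a1, with the higher-scoring 50%. It called 0 members in peak number or promoter rank when each animal was left out. Without duplicated lists, which left C57BL6/J media and LPSx2 to animal 7 alone, the Pfkl promoter difference was -31.2. Over all genes, LPSx1 against media called 511, and 112 without the lane term, 0 at full length, 225 with the higher-scoring 50%, 832 with no minimum and 75 without duplicated lists; the strain contrast called 111, and 15, 0, 55, 215 and 271 under the same settings and 57 within 25 kb. LPSx2 against LPSx1 called 0, 1 with the higher-scoring 50% and 35 without duplicated lists. When each animal was left out these counts ranged from 151 to 401, 61 to 220 and 0 to 2, with the lowest LPSx1 count without C57BL6/J animal 4; promoter calls ranged from 0 to 204 for LPSx1 and 0 to 36 between strains.

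The members' median LPSx2 minus media difference of 0.333 peaks became 2.08 at full length and 0.167 to 0.50 when each animal was left out. Regions at members numbered 75, against 274 at full length. At full length Pkm reversed to 1.10 peaks for LPSx1 against media (SE 1.53). Pfkfb3 differed by 12.9 there (SE 9.01) and by 15 for LPSx2 against media (SE 9.26). Of 810 alternative values for member tests that had not passed, 12.5% had the opposite sign and 2 passed. The cause of these changes was not tested.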
